A study of Mus musculus with 11 samples.

Results

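The genes described here are 10 components of B cell receptor signalling, namely Cd79a, Cd79b, Lyn, Syk, Btk, Blnk, Bank1, Pik3ap1, Dapp1 and Plcg2, out of 22208 protein-coding mouse genes. They were chosen by name, and the peaks counted for them were those whose position lay in the gene or within 20 kb of it on the mm9 build (all 10 were found, Syk under its older symbol Sykb). The data came from chromatin immunoprecipitation with sequencing (ChIP-seq) of 2 transcription factors, IRF4 and PU.1, in B cells purified from mouse spleens. The mice were B1-8i on the 129 background, with a targeted antibody gene that can contribute to recognition of the hapten NP. All cells were cultured at 500000 per mL with CD40L, NP-Ficoll (0.01 ng/mL) and the cytokines IL-5, IL-4 and IL-2. Cells were taken at day 3, which the study describes as after differentiation into plasma cells, or at day 1, which it describes as activated but not yet differentiated. There were 3 IRF4 libraries at day 3 and 3 at day 1, and 2 PU.1 libraries at day 3 and 2 at day 1. The study asked how the binding of both factors compares between these days. The sources used here do not give the share of cells that had differentiated, and lists of binding positions do not allow a check of cell type by markers.

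When antigen engages the receptor, the kinase Lyn phosphorylates the cytoplasmic tails of the CD79A and CD79B chains, and Syk docks on these tails and is activated. Syk phosphorylates the adaptor BLNK, which brings Btk and phospholipase C gamma together so that calcium is released, while BCAP (encoded by Pik3ap1), BANK1 and BAM32 (encoded by Dapp1) link the receptor to the phosphoinositide 3-kinase branch and to other kinases. IRF4 binds DNA poorly on its own; with the Ets factor PU.1 it binds a joint sequence, the Ets-IRF composite element (EICE), and with AP-1 factors another, the AP-1-IRF composite element (AICE).

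IRF4 peaks from different libraries that lay less than 200 bp apart were merged into regions. At the 10 genes there were 59 such regions of 20058 in all, and the 19 that were called in 2 or more of the 6 IRF4 libraries are called places here and numbered within each gene. Sequences are printed for the places that carry an EICE, a pair of IRF cores (ISRE) or an AP-1 site and were called in the most IRF4 libraries, 1 per gene (of Lyn places 2 and 3, which tied, the one with the higher IRF4 percentile), and for the Syk and Pik3ap1 places, which were added because all 10 libraries called them. All are the plus strand of the mm9 reference, 5′ to 3′; bases of exons are left out except at the Cd79a place, where 30 bases around the element are given. The first 4 show in capitals the EICE, GGAANNGAAA, or its reverse complement.

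Cd79b place 1, chr11:106167177-106167377: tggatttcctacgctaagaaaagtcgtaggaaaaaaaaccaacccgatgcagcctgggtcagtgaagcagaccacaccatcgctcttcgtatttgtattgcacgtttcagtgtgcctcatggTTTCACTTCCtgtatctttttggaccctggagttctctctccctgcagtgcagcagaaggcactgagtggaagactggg
Bank1 place 1, chr3:135910444-135910595: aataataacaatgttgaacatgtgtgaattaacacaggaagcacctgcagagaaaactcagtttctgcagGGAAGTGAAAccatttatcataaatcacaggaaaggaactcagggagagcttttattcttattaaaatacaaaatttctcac
Dapp1 place 1, chr3:137644510-137644607: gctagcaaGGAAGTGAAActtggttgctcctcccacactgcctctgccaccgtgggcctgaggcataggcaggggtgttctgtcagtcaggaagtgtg
Lyn place 2, chr4:3752067-3752267: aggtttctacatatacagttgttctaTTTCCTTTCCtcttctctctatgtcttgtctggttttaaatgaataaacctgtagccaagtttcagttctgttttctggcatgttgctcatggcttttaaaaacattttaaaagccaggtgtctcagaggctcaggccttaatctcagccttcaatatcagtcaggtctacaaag
Cd79a place 1 (capitals: interferon-stimulated response element, ISRE), chr7:25669426-25669455: cacgcccaagGAAACGGAAAgaggaaccag
Plcg2 place 1 (capitals: AP-1 site), chr8:120060790-120060990: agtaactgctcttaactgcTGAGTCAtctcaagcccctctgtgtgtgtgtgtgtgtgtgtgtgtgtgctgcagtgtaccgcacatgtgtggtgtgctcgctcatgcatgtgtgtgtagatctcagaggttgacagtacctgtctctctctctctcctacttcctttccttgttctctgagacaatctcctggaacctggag
Syk place 1 (capitals: Ets core GGAA), chr13:52667973-52668173: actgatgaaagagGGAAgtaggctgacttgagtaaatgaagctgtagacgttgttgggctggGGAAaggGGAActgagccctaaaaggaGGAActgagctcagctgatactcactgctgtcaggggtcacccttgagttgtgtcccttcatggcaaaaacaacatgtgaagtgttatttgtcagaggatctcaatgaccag
Pik3ap1 place 1 (capitals: nearest match to the EICE, with 7 of its 8 fixed letters), chr19:41446953-41447153: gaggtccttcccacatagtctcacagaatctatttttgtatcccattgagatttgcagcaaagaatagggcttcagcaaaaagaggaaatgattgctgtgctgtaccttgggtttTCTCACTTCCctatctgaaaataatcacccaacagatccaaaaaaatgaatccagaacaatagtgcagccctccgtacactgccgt

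The following features of the lists bear on every value below. The IRF4 library lists held 2784, 1408 and 5595 peaks at day 3 and 825, 9326 and 8929 at day 1, so day 1 replicate 1 was by far the shortest; the PU.1 lists held 34410 and 34061 peaks at day 3 and 27321 and 38052 at day 1. The lowest fold enrichment listed was 15.0 to 16.9 in the IRF4 day 3 libraries and 20.9 to 21.9 in the IRF4 day 1 libraries, so the lists of these days end at different levels. The files give the authors' fold enrichment over input but no read counts, so depth is unknown, and ranks are given within a library's own list (1 is the strongest). A peak near a gene is a statement of distance and does not show that it acts on that gene.

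IRF4 lay at or near most of these genes on both days and PU.1 at all of them. In the lists that the authors deposited per factor and day (group lists), 7 of the 10 genes had an IRF4 peak at day 3, when 8.47% of all genes had one, and 8 had an IRF4 peak at day 1, when 10.0% of all genes had one. Cd79b, Syk, Blnk, Lyn, Pik3ap1 and Bank1 had one on both days (5.42% of all genes), Dapp1 in the day 3 list alone (3.05%), and Cd79a and Plcg2 in the day 1 list alone (4.62%); Btk had none. The day 1 count rested on replicates 2 and 3: with the list rebuilt from the libraries it was again 8, and it was 2 without replicate 2 and 2 without replicate 3. PU.1 had a peak at 10 of 10 genes at day 3 (54.4% of all genes) and at 10 of 10 at day 1 (52.3%). The gene set spans 43.4 to 313 kb per gene with its flanks, and the shares over all genes are not matched for length.

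Counts in single libraries moved with list length. An IRF4 peak lay at 7, 7 and 9 of the 10 genes in the day 3 libraries (11.6%, 6.43% and 21.2% of all genes) and at 3, 10 and 9 in the day 1 libraries (3.65%, 31.2% and 30.3%). Every gene had an IRF4 peak in some library (49.8% of all genes) and a place called in 2 or more (16%). Each PU.1 library had a peak at all 10 (65.9% and 63.4% of all genes at day 3, 57.0% and 65.9% at day 1). At day 3 the IRF4 libraries held 8, 8 and 24 peaks at the 10 genes, and at day 1 they held 3, 32 and 25. The groups overlapped, and the largest and the smallest count both came from day 1. The means were 13.3 ± 9.24 at day 3 and 20 ± 15.1 at day 1 (SD, n = 3 each), a difference of -6.67 peaks that was smaller than the spread between libraries (two-sided exact permutation p = 0.6, where 0.1 is the smallest value possible). Per 1000 peaks of a library the means were 4.28 ± 1.40 at day 3 and 3.29 ± 0.436 at day 1, a difference of 0.992 in the other direction (exact permutation p = 0.3). Among the strongest 825 peaks of each library there were 4, 4 and 6 at these genes at day 3 and 3, 3 and 6 at day 1 (exact permutation p = 0.6). PU.1 gave 110 and 124 peaks at day 3 and 98 and 122 at day 1, which also overlapped, with a difference of 7 (exact permutation p = 0.667, where 0.333 is the smallest possible). Adjusted by Benjamini-Hochberg over the 6 tests of this kind, every exact permutation p was 1. Since no label states whether replicates were separate animals or cultures, these tests measure the spread between libraries, which may be technical.

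**Figure D1:**
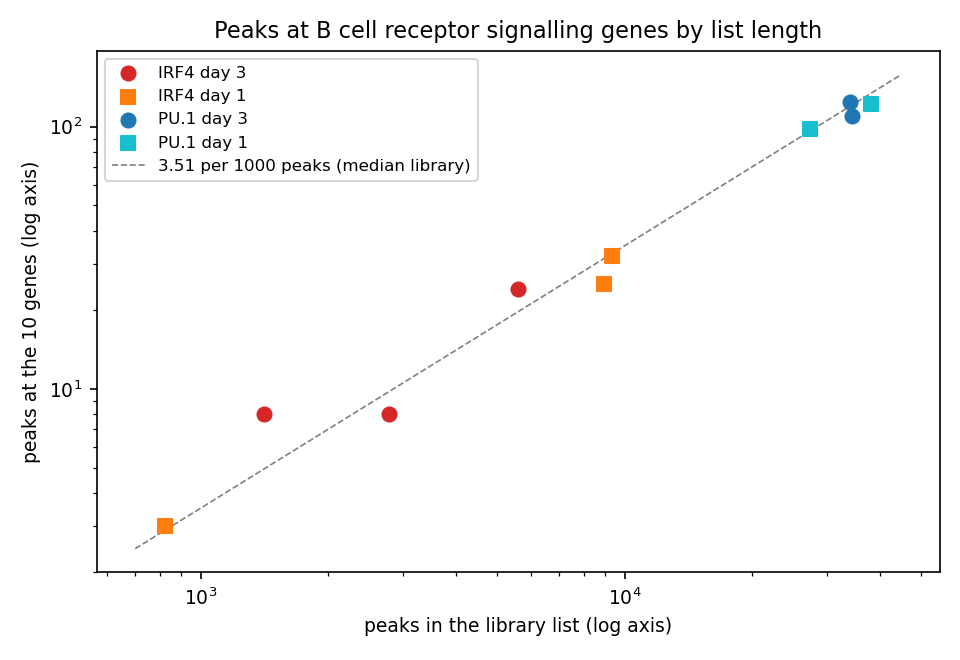
Peaks at the 10 genes (vertical log axis) against the number of peaks in the library list (horizontal log axis), 1 point per library; the dashed line marks 3.51 per 1000 peaks, the median library. Counts go up with list length, and the IRF4 points of both days lie on either side of the line, at 2.87 to 5.68 per 1000 at day 3 and 2.80 to 3.64 at day 1.

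There were 2 places called in all 6 IRF4 and all 4 PU.1 libraries, at Syk and at Pik3ap1. A region of IRF4 in all 6 libraries lay at 1.34% of all genes. Without day 1 replicate 1, the shortest list, 4 places were called in all other IRF4 libraries, Cd79b place 1 and Blnk place 1 among them. The 208 regions of the genome that all 10 libraries called were ordered by their median percentile within the lists. The Syk place stood at 16 of 208 for IRF4 and at 4 of 208 for PU.1, and the Pik3ap1 place at 35 for IRF4 and 15 for PU.1. Both were thus in the upper part of the regions shared by every library, more so for PU.1 than for IRF4.

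Among the receptor chains, Cd79b had the more widely called place. Cd79b (chr11:106172655-106176076, minus strand), which encodes the Ig-beta chain, had place 1 at chr11:106167092-106167579, in intergenic DNA 8.80 kb downstream of its start and beyond the end of the gene; the nearest annotated start there is that of Gh, the growth hormone gene. IRF4 was enriched 44.8-, 19.7- and 39.8-fold there in the day 3 libraries, against 88.7- and 54.2-fold in day 1 replicates 2 and 3 and no peak in replicate 1. These were ranks 340 of 2784, 1019 of 1408 and 644 of 5595 at day 3 and 191 of 9326 and 674 of 8929 at day 1. The ranks overlapped between the days, on lists of differing length. Within each list they were percentiles 87.8, 26.8 and 88.4 at day 3 and 98.0 and 92.4 at day 1. On this scale higher is stronger, and the days did not overlap. However, a given rank is a higher percentile in a longer list, and these day 1 lists were the longer ones. Both day 1 folds were also above the day 3 folds, on lists that differ in length and lowest fold. Day 1 replicate 1, the shortest list, is not part of these comparisons, as it had no peak there. PU.1 was enriched 586- and 522-fold at day 3 and 327- and 613-fold at day 1, the strongest PU.1 region of the gene. The EICE printed above for this place was read on the minus strand, with its centre 2.5 to 42.5 bp from the 5 IRF4 positions and 3.5 to 21.5 bp from the 4 PU.1 positions.

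Cd79b place 2, at chr11:106180392-106180710, lay 4.44 kb upstream in an untranslated exon of Scn4a, a muscle sodium channel gene, and was called in day 1 replicates 2 and 3 alone. Its PU.1 peaks were of middling rank, 16178 and 20547 at day 3 and 21437 and 10913 at day 1.

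Cd79a (chr7:25682400-25687216, plus strand), which encodes the Ig-alpha chain, had IRF4 at 1 place, chr7:25669171-25669562, which is 12.9 kb upstream and 0.078 kb into the ribosomal protein gene Rps19, in an untranslated exon. No day 3 library called it, and day 1 replicates 2 and 3 gave 21.1- and 23.7-fold, ranks 8890 of 9326 and 6534 of 8929, in the lower part of these lists. The ISRE printed for it reads GAAACGGAAA, a pair of IRF cores spaced as in GAAANNGAAA. At the start of Cd79a itself PU.1 was called in all 4 libraries, at 388- and 215-fold at day 3 and 149- and 239-fold at day 1, and no IRF4 library had a peak.

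Of the receptor-proximal kinases, Syk had the strongest IRF4 place and Btk the fewest peaks. Syk (chr13:52678542-52744161, plus strand) had place 1 at chr13:52667355-52668293, intergenic, 10.5 kb upstream. Its IRF4 enrichment was 81.7-, 51.6- and 185-fold at day 3 and 56.8-, 93.5- and 94.3-fold at day 1, ranks 35, 64 and 15 at day 3 and 41, 160 and 126 at day 1. The days overlapped in enrichment and in rank. PU.1 reached 2032- and 1872-fold at day 3 and 1226- and 1906-fold at day 1, ranks 9 and 4 at day 3 and 7 and 2 at day 1, so this was among the 10 strongest PU.1 peaks of every library. The best match to the EICE there had 6 of 8 fixed letters, and no element searched was found in the window; the printed sequence holds 4 copies of the Ets core GGAA.

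Lyn (chr4:3605262-3740269, plus strand), a Src-family kinase that also phosphorylates inhibitory receptors, had 4 places, spread over the gene and its downstream flank. Place 1, in an intron 4.92 kb into the gene at chr4:3609974-3610436, was enriched for IRF4 19.6- and 20.9-fold in day 3 replicates 1 and 2 and 45.8- and 63.6-fold in day 1 replicates 2 and 3. Its ranks were 1999 of 2784 and 917 of 1408 at day 3 and 1202 of 9326 and 454 of 8929 at day 1. These ranks overlapped, on lists of differing length. Within each list they were percentiles 27.4 and 34.6 at day 3 and 87.0 and 94.9 at day 1. The percentiles did not overlap, but they too depend on list length. As at Cd79b place 1, both day 1 folds were above the day 3 folds. PU.1 ranks there were 356 and 489 at day 3 and 368 and 228 at day 1. Place 2, intergenic and 147 kb from the start, and place 3, in an intron at 46.8 kb, each had an EICE, PU.1 in all 4 libraries and IRF4 in 1 day 3 and 2 day 1 libraries. At place 3 (chr4:3651867-3652256) the EICE GGAAGTGAAA runs into an ISRE GAAAGTGAAA with which it shares 4 bases. Place 4, in an intron at 43.6 kb, held an ISRE and no PU.1 peak in any library. It was called once on each day, 21.3-fold in day 3 replicate 3 and 46.3-fold in day 1 replicate 3.

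Btk (chrX:131076875-131118109, minus strand), the Tec-family kinase that acts with BLNK on phospholipase C gamma, had 1 place, in an untranslated exon 0.459 kb from its start at chrX:131117534-131117775. It was called in day 3 replicate 3 at 17.9-fold and in day 1 replicate 2 at 23.9-fold, ranks 3677 of 5595 and 6006 of 9326. PU.1 was called there in both day 3 libraries, at 172- and 222-fold, and in day 1 replicate 2 at 205-fold.

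Each of the 4 adaptor genes had IRF4 at its strongest PU.1 region. Blnk (chr19:41003417-41069025, minus strand) had place 1 at chr19:41069718-41071012, intergenic, 1.24 kb upstream. IRF4 was enriched 43.0-, 44.1- and 62.5-fold at day 3 and 40.0- and 46.3-fold in day 1 replicates 2 and 3, values that overlapped. The IRF4 ranks were 383, 122 and 203 at day 3 and 1628 and 1028 at day 1. All day 3 ranks were thus ahead of the day 1 ranks, on lists of differing length. Within each list the percentiles were 86.2, 91.3 and 96.4 at day 3 and 82.4 and 88.4 at day 1, which overlapped. PU.1 was at ranks 174 and 90 at day 3 and 177 and 155 at day 1. Place 2 lay in an untranslated exon 0.285 kb from the gene start, at -0.102 kb from another annotated Blnk start. It was called in 1 IRF4 library of each day.

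Pik3ap1 (chr19:41346863-41459586, minus strand) had place 1 in an intron at chr19:41446812-41447260, 12.5 kb from its start. IRF4 gave 55.7-, 59.4- and 87.2-fold at day 3 and 57.7-, 49.0- and 88.4-fold at day 1, ranks 166, 41 and 71 at day 3 and 36, 1017 and 155 at day 1. The days overlapped closely in enrichment. PU.1 gave 1202- and 1078-fold at day 3 and 776- and 663-fold at day 1, ranks 49 and 32 at day 3 and 40 and 197 at day 1. The printed sequence differs from the EICE in 1 fixed letter (GGAAGTGAGA on the minus strand). Place 2, in an intron at 63.7 kb, had IRF4 in day 1 replicates 2 and 3 and no PU.1.

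Bank1 (chr3:135716327-135989030, minus strand), a scaffold that binds Lyn, was the longest of the genes and had 4 places, all in its introns. Place 1, at chr3:135910248-135910717, 78.5 kb from the start, had IRF4 at 26.4-, 21.8- and 42.3-fold at day 3 and at 36.5-fold in day 1 replicate 2. PU.1 ranks there were 60 and 211 at day 3 and 131 and 2102 at day 1. Its EICE lay 3.5 to 68.5 bp from the IRF4 positions. Places 2 and 3, at 73.1 and 237 kb, were called in day 1 replicates 2 and 3 and in no day 3 library, and place 4, at 87.1 kb, in day 3 replicate 3 and day 1 replicate 1.

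Dapp1 (chr3:137593971-137644509, minus strand), an adaptor that binds phosphoinositides at the membrane, was the gene with an EICE at its own start. Place 1, at chr3:137644303-137644675, had IRF4 at 23.0-, 19.0- and 15.6-fold in the day 3 libraries and at 26.5-fold in day 1 replicate 3. Its ranks, 1475 of 2784, 1115 of 1408 and 4966 of 5595 at day 3 and 4376 of 8929 at day 1, were in the lower or middle part of each list. PU.1 was strong there, 1307- and 606-fold at day 3 and 456- and 708-fold at day 1, ranks 36 and 290 at day 3 and 232 and 153 at day 1. The EICE centre was 15.5 bp from the middle of the IRF4 positions.

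Plcg2 (chr8:120022191-120159040, plus strand), the phospholipase that cleaves phosphatidylinositol bisphosphate, had 1 place, in an intron 38.7 kb from its start at chr8:120060621-120061001. No day 3 library called it, and day 1 replicates 2 and 3 gave 25.9- and 46.3-fold. Its PU.1 peaks were weak, 27.7-fold in day 3 replicate 2 and 19.1- and 30.6-fold at day 1. Among the 19 places it was the only one with an AP-1 site, TGANTCA, and its nearest EICE match had 7 of 8 letters.

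**Figure D2:**
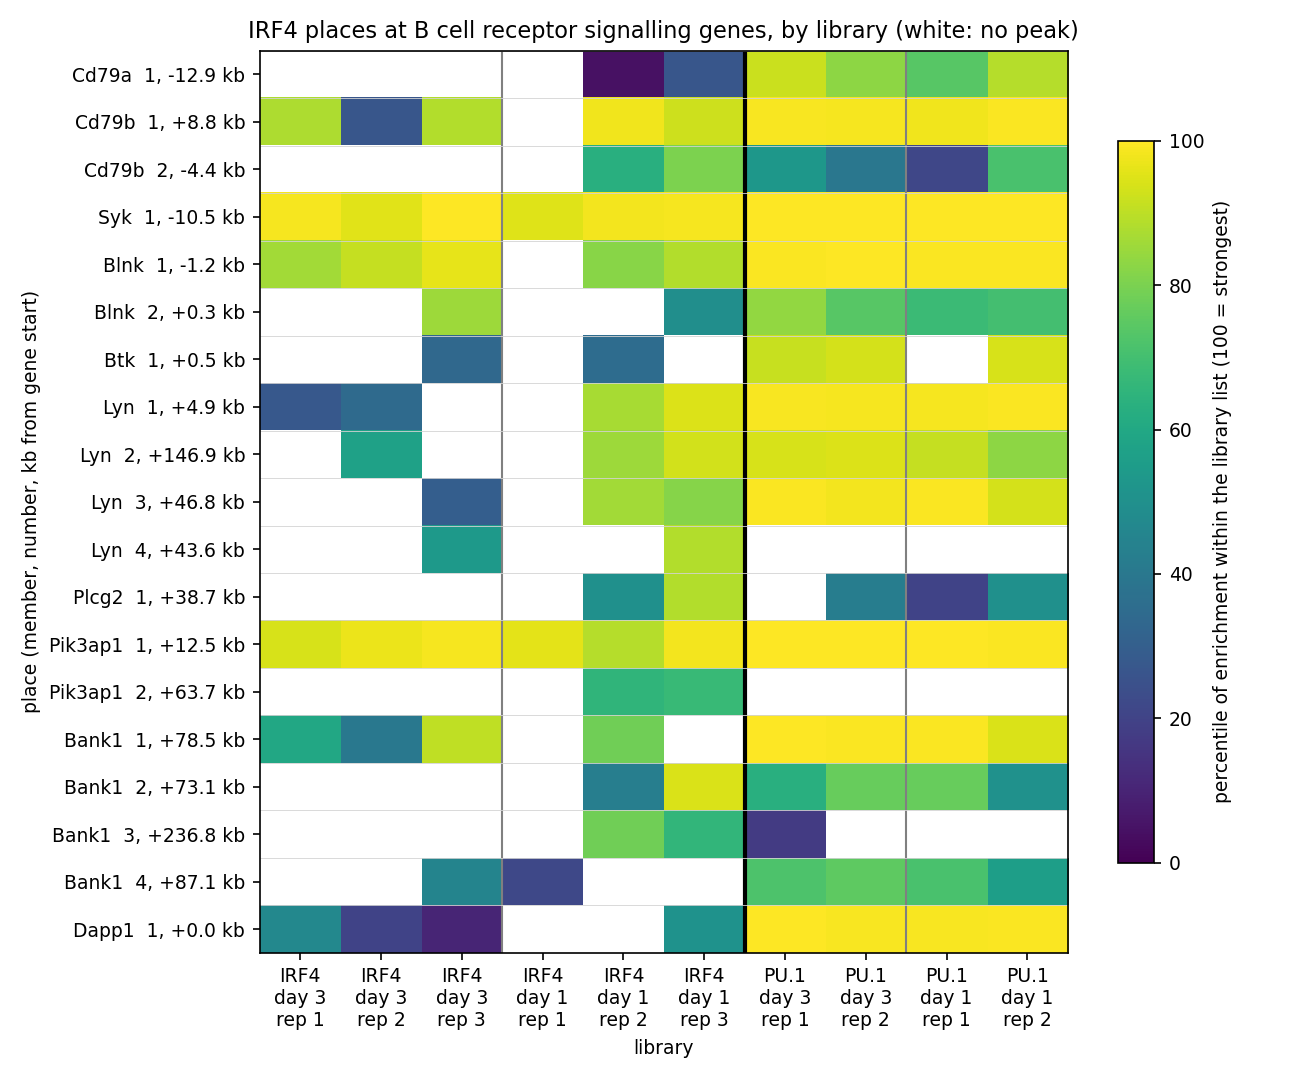
Percentile of the authors' enrichment within each library list (colour; 100 is the strongest, white is no peak) for the 19 places (rows) in the 10 libraries (columns, day 3 left of day 1 for each factor). Syk place 1 and Pik3ap1 place 1 are coloured in every column, and 6 rows have IRF4 in day 1 replicates 2 and 3 but in no day 3 library.

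Comparing days over all places, none of the 19 was called in 2 or more day 3 libraries and no day 1 library (9.45% of the 4189 regions of the genome in 2 or more IRF4 libraries). The opposite, 2 or more day 1 libraries and no day 3 library, held for 6 of the 19 (20% of the 4189), namely the Cd79a and Plcg2 places, Cd79b place 2, Pik3ap1 place 2 and Bank1 places 2 and 3. All 12 IRF4 peaks of these 6 places came from day 1 replicates 2 and 3, the longest lists, with 21.1- to 61.5-fold enrichment. Cut to the 1408 strongest peaks, the length of the shortest day 3 list, the day 1 lists left 0 such places. Cut to 5595, the length of the longest, they left 5. The day 3 lists were left uncut, so at 1408 the day 3 lists of replicates 1 and 3 were the longer ones. Without day 1 replicate 2 or without day 1 replicate 3 there were 0. In the other direction, 8 of the 26 day 3 peaks at the places, at 6 places, had a fold below the lowest fold listed in any day 1 library, among them the Dapp1 peaks of replicates 2 and 3. How far list length and the differing lowest folds set these day patterns was not tested.

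PU.1 accompanied IRF4 at most of these places. Of the 7 IRF4 group-list peaks at the genes at day 3, 7 had a PU.1 group-list peak less than 200 bp away (100%, exact 95% interval 59.0 to 100%, against 64.1% of the whole list), and at day 1 it was 11 of 13 (84.6%, exact 95% interval 54.6 to 98.1%, against 56.8%). The intervals cover counting error only. Of the 19 places, 17 had PU.1 in at least 1 library (72.2% of the 4189 regions) and 14 in all 4 (45.9%). The share went with the number of IRF4 libraries: all 7 places in 4 to 6 IRF4 libraries had PU.1 in all 4 libraries, where 62.9% of such regions of the genome did, and 5 of the 10 places in 2 IRF4 libraries did, where 35.2% did. Lyn place 4 and Pik3ap1 place 2 were the places with no PU.1 peak.

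Seen from PU.1, there were 171 regions at the 10 genes of 57563 in all, and 62 of them (36.3%) were called in all 4 libraries, against 24.7% of all PU.1 regions. Each of the 10 genes had at least 1 region in all 4 libraries (43.4% of all genes), from 3 at Btk to 9 at Cd79b. The median gene of the set had 6.17 PU.1 group-list peaks per 100 kb at day 3 and 6.59 at day 1, where the median over all genes was 0.949 at day 3 and 0.673 at day 1. Within 1 kb of the gene start a region in all 4 libraries lay at 7 of 10 genes, all but Syk, Btk and Plcg2 (9.92% of all genes). Of these 7, PU.1 at the Cd79a, Lyn and Pik3ap1 starts had no IRF4 peak in any library. Syk, Btk and Plcg2 each had a region in 3 PU.1 libraries there, at -0.127, 0.408 and 0.325 kb from their starts. Syk also had a region in all 4 libraries 0.026 kb from another of its annotated starts.

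**Figure D3:**
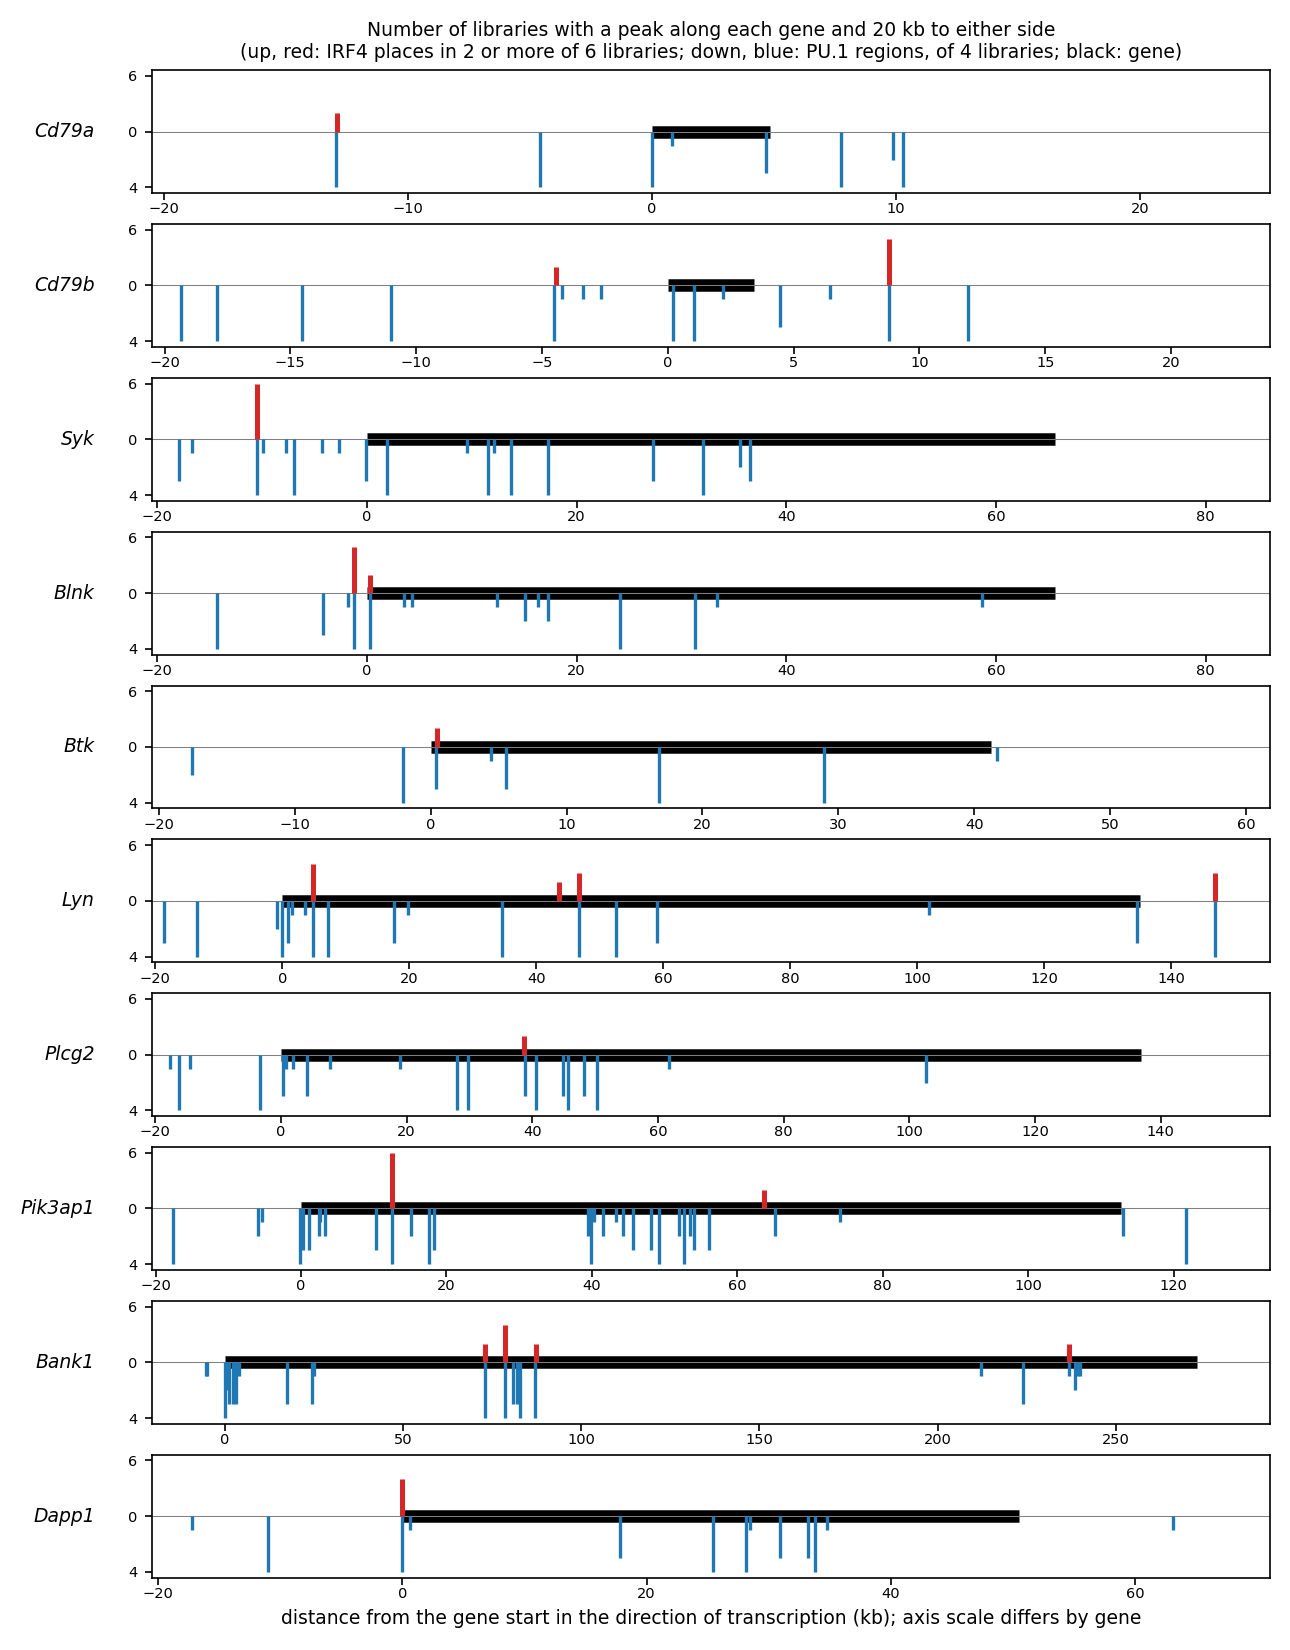
Each panel shows 1 gene (black bar) and 20 kb to either side, with distance from the gene start in kb on the horizontal axis, which differs in scale between panels. Red lines rise to the number of IRF4 libraries (of 6) that called a place and blue lines fall to the number of PU.1 libraries (of 4) that called a region; PU.1 regions outnumber IRF4 places in every panel, and 17 of the 19 red lines stand over a blue one.

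Among the PU.1 regions called in all 4 libraries, the strongest of a gene by its mean percentile over these libraries was at 7 of the 10 genes also a place with IRF4 in 4 or more libraries; among the 2170 genes with at least 3 PU.1 regions in all 4 libraries this held for 16.2%. These genes were Syk, Pik3ap1, Blnk, Dapp1, Lyn, Cd79b and Bank1. At Cd79a, Plcg2 and Btk this region had no IRF4 peak in any library (51.0% of the 2170 genes). For Btk this rests on the condition of all 4 libraries: place 1 at its start, with IRF4 in 2 libraries, had PU.1 at 172- and 222-fold at day 3 and 205-fold in day 1 replicate 2, above the 118-, 121- and 157-fold of the region named here in the same libraries, but no peak in day 1 replicate 1. The regions of those 3 genes were also the 3 weakest of the 10 for PU.1, with mean percentiles of 94.3, 90.3 and 86.6, against 98.3 to 99.99 in the other 7. Over the genome IRF4 likewise went with PU.1 strength. With the PU.1 regions in all 4 libraries split into 3 groups of equal number by strength, IRF4 in 2 or more libraries was found at 31.8% of the strong, 6.44% of the middle and 2.73% of the weak group. At the 10 genes it was 10 of 30 (33.3%) in the strong, 3 of 18 in the middle and 1 of 14 in the weak group, so the share among strong regions was near that of the genome.

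**Figure D4:**
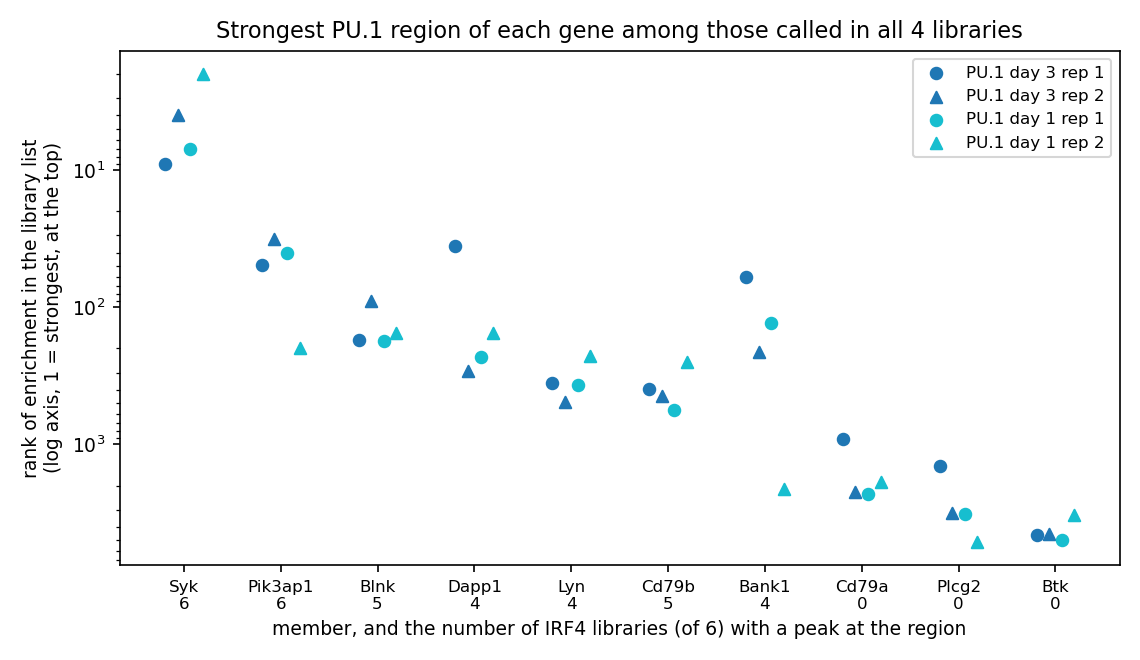
Rank in the 4 PU.1 library lists of the strongest region of each gene among those called in all 4 (vertical log axis, rank 1 at the top), with the number of IRF4 libraries that called the region under each gene name. The 7 genes on the left have 4 to 6 IRF4 libraries there, and Cd79a, Plcg2 and Btk on the right have 0; Btk place 1, called in 3 PU.1 libraries, is not plotted.

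Few PU.1 regions of these genes differed between the days in both libraries. Both day 3 libraries and neither day 1 library called 3 of 171 (3.78% of all PU.1 regions), of which 2 lay in an intron of Pik3ap1 at 39.5 and 41.6 kb and 1 was 9.88 kb from the start of Cd79a, in an intron of its neighbour Arhgef1. The Pik3ap1 region at 39.5 kb, with 36.4- and 19.4-fold enrichment at day 3, lies within the span of a stronger PU.1 region that all 4 libraries called (chr19:41419171-41420303), so it is a second position beside a peak present on both days. The reverse pattern was seen at 1 region (2.38% of all), in an intron of Blnk at 17.3 kb, with 21.2- and 33.7-fold at day 1. These shares of the 171, 1.75% for day 3 and 0.585% for day 1, were below those of the genome but rest on 3 regions and 1 region.

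For each place, both strands of a 201 bp window centred on the median IRF4 position were searched for elements; a match describes the letters in this window and does not show that a factor is bound to them. The EICE was found at 5 of the 19 places (26.3%, against 22.8% of the 4189 regions and 2.27% of windows 2 kb to their right), at Cd79b, Lyn (2 places), Bank1 and Dapp1. All 5 had PU.1 in all 4 libraries. Among the 14 such places the share was 35.7%, against 36.5% of all regions in 2 or more IRF4 and all 4 PU.1 libraries, so once PU.1 was required the genes and the genome were close. With at most 1 of the 8 fixed letters changed, 16 of 19 places matched (64.2% of the 4189). The ISRE, GAAANNGAAA, was found at 3 places (10.6% of all), 1 of them overlapping the EICE of Lyn place 3. The PU.1 site GAGGAAG was found at 4 (18.7%), the AP-1 site TGANTCA at 1 (25.9%) and the AICE, GAAATGANTCA or TTTCNNNNTGANTCA, at 0 (4.18%). The EICE letters read backwards without complementing, AAAGNNAAGG, were found at 0 (2.01%).

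Measured over the 5 EICE places, the distance from the EICE centre had a median of 35.5 bp for the 19 IRF4 positions (2.5 to 91.5 bp) and 21.5 bp for the 20 PU.1 positions (3.5 to 92.5 bp). At Lyn place 2 the positions of both factors lay 53.5 to 92.5 bp from the element. Its EICE reads GGAAAGGAAA, while the other 4 read GGAAGTGAAA. By annotation 10 places were in introns (52.6%, against 47.5% of the 4189), 4 were intergenic (21.1%, against 47.4%) and 5 were in exons (26.3%, against 5.04%). The places were chosen for lying in or near a gene and the 4189 regions were not, so these shares differ in part by that rule. The exon places were those of Cd79a (in Rps19), Btk and Dapp1, Cd79b place 2 (in Scn4a) and Blnk place 2, and 3 of them lay within 1 kb of the start of a gene of the set.

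The remaining pathway genes were examined as 63 further genes in 7 lists, of which 62 were matched. IRF4 group-list peaks lay at 28 of the 62 at day 3 (8.47% of all genes), at 29 at day 1 (10.0%) and at 21 on both days (5.42%), and PU.1 peaks lay at 60 at day 3 (54.4%) and 60 at day 1 (52.3%). By branch, IRF4 had peaks at day 3 and at day 1 at 4 and 4 of 7 kinases and phosphatases near the receptor, 5 and 5 of 11 adaptors, 5 and 7 of 11 genes of the phosphoinositide 3-kinase branch, 7 and 5 of 12 of the calcium and NFAT branch, 3 and 4 of 8 of the protein kinase C and NF-kB branch, 2 and 3 of 10 of the RAS and MAPK branch and 2 and 1 of 3 ubiquitin ligases. The lists are short and unmatched for gene length, so no difference between branches is read from these counts.

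A region in all 6 IRF4 libraries, found at 1.34% of all genes, lay at 8 of the 62, namely Pag1, which anchors the inhibitory kinase Csk, the adaptors Grb2 and Hcls1, the lipid kinase and phosphatase genes Pik3cg and Inpp4b, Plekha2, whose product binds phosphoinositides, Rasgrp3, a Ras activator, and Malt1, of the NF-kB branch. Pag1 and Inpp4b had an EICE there, in introns 7.36 and 11.1 kb from their starts, with PU.1 in all 4 libraries. Cd79b place 1 (intergenic) and Bank1 place 1 (intron) also had an EICE and PU.1 in all 4, but only 5 and 4 IRF4 libraries. Malt1 and Grb2 had an AP-1 site and no PU.1 peak in any library, a combination that no place of the 10 genes showed. Among calcium genes, Itpr3 (14.4 kb upstream) and Itpr2 (intron, 11.6 kb) had an EICE with PU.1 in all 4 libraries, at regions with IRF4 in 3 day 3 and 2 day 1 libraries and in 2 of each day, whereas the Itpr1 region (intron, 66.0 kb) had IRF4 in 5 libraries and no PU.1. The ubiquitin ligase gene Cblb, which restrains receptor signalling, had an EICE in an intron 28.9 kb from its start with IRF4 in 3 day 3 and 2 day 1 libraries and PU.1 in all 4.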

How the data were processed

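The files held peak lists, 1 per library and 1 per factor and day. Per the series' design text, reads were aligned to mm9 by the authors and peaks scored against input with QuEST (its version, thresholds and the aligner: not given in the sources used here). The deposited enrichment is a linear ratio (fold) to input, used here only to describe and rank peaks within a list. The input library, pooled from 2 preparations, was not analysed here. Each group-list line was a copy of a library line: for IRF4 at day 3, 1772 lines were those of replicate 1 and 192 of replicate 2, for IRF4 at day 1, 767 were of replicate 1 and 1729 of replicate 2, and for PU.1 all were of replicate 1. Repeated lines (5 at day 3, 7 at day 1, PU.1) were counted once. Replicates were numbered as in the sample descriptions; a pair of libraries carry 2 title numbers each.

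The sources used here do not say whether deposited positions count from 0 or 1; sequence coordinates count from 1 and were read from the mm9 reference, and genes came from GENCODE M1. Days were compared over libraries with exact permutation tests; other counts stand beside the same count over all genes or regions, with no test. Places were named by the number of IRF4 libraries; for other pathway genes, up to 3 per list with a peak in both IRF4 group lists and the most libraries were eligible. The genes and lists were chosen with earlier results of these data known. Counting was checked on simulated peaks. Python 3.11.15, pandas 2.3.3, pysam 0.24.0 and matplotlib 3.10.9 were used. Alternatives covered the 20 kb and 200 bp distances, list strength, rebuilt lists, window size and each replicate left out.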

Additional observations from a re-analysis of the deposited data

How the results depend on the processing

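Of the alternative values, 80 kept their direction or size class, 10 moved and 3 reversed. The number of genes with an IRF4 peak at day 1 ranged from 2 to 8 when 1 day 1 library was left out. The difference in IRF4 peaks per library, -6.67, turned to 0.992 per 1000 peaks and to 0.667 among equal numbers of top peaks, and ranged from -15.2 to -0.667 without 1 replicate. The PU.1 difference of 7 ranged from -5 to 19 without 1 replicate and was -5 without day 1 replicate 1. The share of day 1 IRF4 peaks with PU.1 ranged from 84.6 to 100% without 1 replicate, with 100% (2 of 2 peaks) without day 1 replicate 2 or 3. Places in all IRF4 libraries numbered 1 within 5 kb of the genes, in place of 2, and 2 to 4 without 1 replicate, 4 being the count without day 1 replicate 1. Regions with an EICE numbered 8 of 59 when any library sufficed. The places called in day 1 libraries alone were an analysis chosen after seeing the data. They numbered 0 with day 1 lists cut to 1408 peaks and day 3 lists uncut, and 0 to 7 without 1 replicate. The cause of these shifts was not tested.

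The replicate block, which pairs day 3 and day 1 libraries of the same number, gave -6.67 for IRF4 (exact sign-flip permutation p = 0.75) and 7 for PU.1 (exact p = 0.5). The smallest values these paired tests allow are 0.25 and 0.5, so they could not have changed a call. Deviations of each library's calls from the mean of its day were correlated between days. Same-numbered libraries gave -0.268, 0.0768 and -0.103 for IRF4 and -0.00274 for PU.1. Libraries of other numbers gave -0.343 to 0.437 for IRF4 and 0.00274 for PU.1. With 2 PU.1 libraries per day, the PU.1 values are equal and opposite by construction. The deviations of both factors also depend on list length, so they cannot tell whether the numbers pair the libraries.

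Depth is unknown and the IRF4 day 3 and day 1 lists end at different folds, so a missing peak does not show that a factor was absent. A test of 3 against 3 libraries cannot go below 0.1 and one of 2 against 2 cannot go below 0.333, which leaves both comparisons between days without the means to reach 0.05.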
